A study of Mus musculus with 4 samples.

Results

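Mesothelial cells were followed in cultures of epididymal white adipose tissue (eWAT) as droplet barcodes that carried several genes of the mesothelium. Members were chosen by measured values, the UMIs of 6 genes. A barcode was counted as a mesothelial-marker cell when it held at least 1 unique molecular identifier (UMI, 1 captured RNA molecule) of 3 or more of the 6 genes *Upk3b*, *Upk1b*, *Lrrn4*, *Msln*, *Krt19* and *Pkhd1l1*. It also had to hold 5000 to 75000 UMIs, 200 to 7500 genes and under 10% mitochondrial UMIs. In the eWAT_SVF library 506 of 6745 barcodes met the rule, a share of 7.502% (95% interval 6.88% to 8.16%). In the eWAT_DFAT library 61 of 6464 did, a share of 0.944% (95% interval 0.723% to 1.21%). With at least 4 of the genes required the numbers were 446 and 33, and with every barcode thinned to 5000 UMIs they were 350 and 25. Together these were 567 of 13209 eWAT barcodes and of 28262 barcodes that passed the limits in all 4 libraries. The iWAT_SVF library held 1 such barcode among 7424, and the iWAT_DFAT library held 0 among 7629, which allows a share of up to 0.0393% if 3 counts are taken as the limit of a count of 0.

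The eWAT_DFAT library holds de-differentiated fat (DFAT) cells, which grow out of floating adipocytes held against the upper wall of a filled flask (ceiling culture). The eWAT_SVF library holds cells of the stromal vascular fraction, the pellet left after the adipocytes float off, once they had grown in a dish. The iWAT libraries were made in the same way from inguinal fat. All were sorted for live cells with a dye for dead ones and sequenced by droplet-based 3′ single-cell RNA-seq with 1 library per condition. The mice were male C57BL/6J on chow diet without a transgene or drug treatment. Neither their age nor the number of animals behind a culture is given in the sources used here for these libraries. The libraries held 211396227 to 242282812 UMIs each. The mesothelial-marker cells had a median of 21571 UMIs in eWAT_SVF and 22327 in eWAT_DFAT, and the other barcodes 27882 and 27480. Between 13 and 20 barcodes were shared by each pair of libraries, 15 of them by the eWAT pair, and no shared barcode was a mesothelial-marker cell in both.

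The mesothelium is a single sheet of flattened cells that covers the organs of the body cavities, among them the visceral fat pads. It comes from mesoderm, yet it makes keratins and tight junctions as an epithelium does and keeps vimentin as a mesenchyme does. Its cells carry microvilli and a slippery coat of mucins and hyaluronan, and they keep surfaces from sticking together. During development and after injury mesothelial cells can lose their epithelial features and become fibroblast-like, a change known as mesothelial-to-mesenchymal transition. The inguinal pad lies under the skin and has no such cover.

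The 6 genes that chose the cells encode surface and cytoskeletal proteins. *Upk3b* (ENSMUSG00000042985, chromosome 5, 136038496 to 136046487) and *Upk1b* (ENSMUSG00000049436, chromosome 16, 38773184 to 38800328) encode uroplakins, membrane proteins first known from the bladder lining. *Lrrn4* (chromosome 2, 132868305 to 132880891) encodes a leucine-rich repeat protein, *Msln* (chromosome 17, 25748613 to 25754378) mesothelin, and *Krt19* (chromosome 11, 100140810 to 100148665) a keratin. *Pkhd1l1* (chromosome 15, 44457494 to 44601369) encodes a large membrane protein called fibrocystin-L. Positions are those of the GRCm38 (mm10) build.

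Expression is given as CPM, the UMIs of a gene summed over a group of barcodes and scaled to a common total of 1e6 UMIs. *Upk3b* stood at 265 CPM in the mesothelial-marker cells and 2.43 in the other barcodes of eWAT_SVF, and at 135 and 0.0869 CPM in eWAT_DFAT. *Upk1b* stood at 446 and 2.19 CPM in eWAT_SVF and at 397 and 0.728 CPM in eWAT_DFAT. These levels describe how the cells were chosen and support nothing further. The same holds for the shares of mesothelial-marker cells with a UMI, which for *Upk1b* were 98.0% in eWAT_SVF and 98.4% in eWAT_DFAT. For *Msln* they were 80.6% and 21.3%, and for *Pkhd1l1* 77.7% and 52.5%. *Krt19* was seen in 41.1% and 19.7% of the cells.

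**Figure D1:**
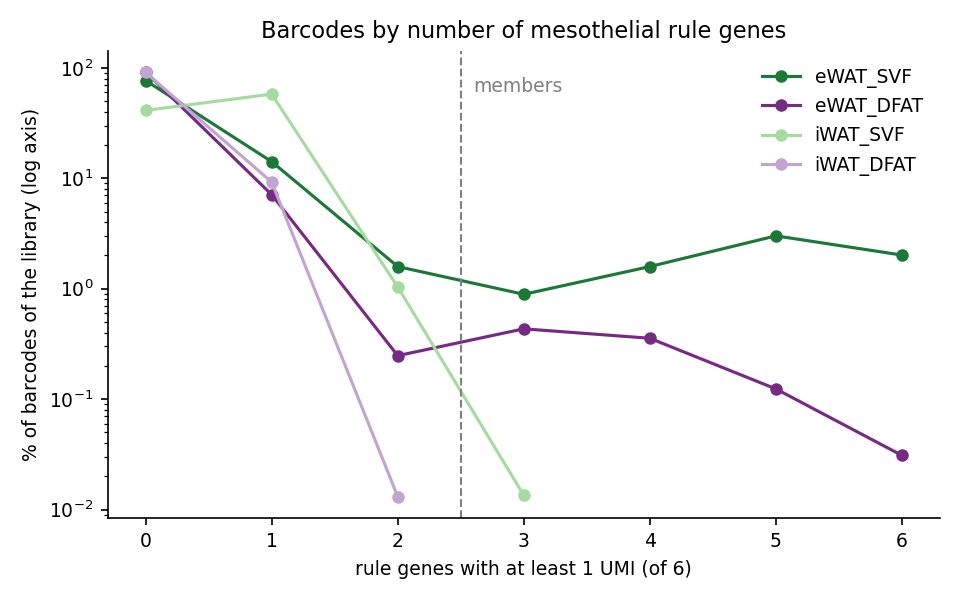
Number of rule genes (0 to 6, x axis) with at least 1 UMI per barcode against the percent of barcodes on a log axis, for the 4 libraries, with the limit of 3 genes marked. The eWAT_SVF library has a second rise at 4 to 6 genes (107, 203 and 136 barcodes), the eWAT_DFAT library a smaller one at 3 and 4 (28 and 23 barcodes), and the iWAT libraries have no barcode beyond 3.

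Barcodes were fewest just inside the limit in eWAT_SVF and just outside it, among those with 2 to 4 rule genes, in eWAT_DFAT. In eWAT_SVF 107 barcodes held 2 rule genes, 60 held 3, and 107, 203 and 136 held 4, 5 and 6. In eWAT_DFAT 16 held 2, 28 held 3, and 23, 8 and 2 held 4, 5 and 6. In eWAT_SVF the summed level of the keratin genes *Krt7*, *Krt8* and *Krt18* had a median of 0 CPM at 2 rule genes and 76.5 CPM at 3, and medians of 321, 544 and 856 CPM at 4, 5 and 6. In eWAT_DFAT its medians did not rise at every step, with 0, 174, 113, 628 and 606 CPM at 2, 3, 4, 5 and 6. Over the same steps of eWAT_SVF the summed level of 16 contractile genes had medians of 28291, 15657, 7603, 6644 and 5875 CPM. In eWAT_DFAT the contractile sum was already low at 2 rule genes, with a median of 4062 CPM, and it was 4511 CPM at 3.

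Promoters are shown for the 2 rule genes with an entry, which are high in these cells by choice, and for *Bnc1*, a transcription factor gene of epithelia and mesothelium that the rule did not use. The 250 bases before the RefSeq start are given for *Upk3b* (chr5:136038246-136038495, plus strand), *Lrrn4* (chr2:132880863-132881112, minus strand) and *Bnc1* (chr7:81992300-81992549, minus strand), from RefSeq on GRCm38.p6. GENCODE, which gives the gene positions printed here, places the *Lrrn4* start further out, so that 29 bases of its window lie inside the gene by that annotation. Capitals mark letters that match 1 of 6 motifs on either strand. The motif of GATA factors was AGATAA, that of TEAD factors GGAATG, and that of WT1 and EGR factors GCGTGGG. The AP-1 motif was TGANTCA, the box named TATA was searched as TATAAA and the GC box as GGGCGG.
Upk3b: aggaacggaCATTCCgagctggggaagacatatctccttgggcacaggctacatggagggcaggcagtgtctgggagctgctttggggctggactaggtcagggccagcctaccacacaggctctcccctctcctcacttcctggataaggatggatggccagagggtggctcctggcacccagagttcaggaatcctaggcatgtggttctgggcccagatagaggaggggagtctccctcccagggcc
Lrrn4: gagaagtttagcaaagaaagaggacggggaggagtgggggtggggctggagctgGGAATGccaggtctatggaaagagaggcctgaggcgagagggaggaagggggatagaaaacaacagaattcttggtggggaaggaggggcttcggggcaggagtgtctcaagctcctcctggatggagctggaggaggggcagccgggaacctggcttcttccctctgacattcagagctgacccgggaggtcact
Bnc1: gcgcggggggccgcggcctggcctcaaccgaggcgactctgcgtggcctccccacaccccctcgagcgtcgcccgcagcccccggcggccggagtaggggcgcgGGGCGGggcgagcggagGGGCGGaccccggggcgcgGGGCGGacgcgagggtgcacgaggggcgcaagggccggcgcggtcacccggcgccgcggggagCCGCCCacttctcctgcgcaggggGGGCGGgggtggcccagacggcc
*Upk3b* had a TEAD match 241 bases before its RefSeq start and *Lrrn4* had one at 196, a motif that 12.6% of 27025 promoters of the same length hold. *Bnc1* had 5 GC box matches, the farthest at 146 bases, letters that 32.9% of promoters hold. GATA letters (10.3% of promoters), WT1 and EGR letters (4.20%), AP-1 (6.87%) and TATA (13.0%) were also searched and matched in none of the 3 windows. Of the 15 genes named below as higher in both libraries, 13 had an entry. TEAD letters were in 1 of the 13, GATA letters in 3, GC box letters in 7, and those of WT1 and EGR, AP-1 and TATA in 0. A match describes the letters and does not show a bound factor, and 2 of the 6 rule genes had an entry.

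The label was checked against genes that the rule did not use. The rule genes are left out of every count below. A gene was measured when it reached 5 CPM in the higher of the compared groups, and it was counted as higher or lower at a ratio of 2-fold or more. Each condition is a single library, so the spread between replicate cultures is unknown and no test was made. Intervals are exact 95% intervals that cover counting error only, and UMIs of 1 cell or 1 library are not independent of each other. Of 10579 measured genes in eWAT_SVF, 1244 (11.8%) were higher in the mesothelial-marker cells than in the other barcodes and 612 (5.79%) were lower. Of 10677 in eWAT_DFAT, 1072 (10.0%) were higher and 866 (8.11%) lower. The median log2 ratio of all measured genes was 0.18 in eWAT_SVF and 0.11 in eWAT_DFAT. Scaling by TMM factors moved both medians to -0.09 and the counts to 905 higher and 858 lower in eWAT_SVF and to 808 and 1088 in eWAT_DFAT.

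Mesothelial genes outside the rule were higher in the chosen cells of both libraries. Of 18 such genes measured in eWAT_SVF, 14 were higher and 0 lower, with a median log2 ratio of 2.48. Of 17 measured in eWAT_DFAT, 13 were higher and 1 lower, with a median of 2.87. Under TMM scaling *Sbsn* and *Ildr2* came just within 2-fold in eWAT_SVF, at log2 ratios of 0.91 and 0.995, and *Sbsn* and the claudin gene *Cldn15* did in eWAT_DFAT, at 0.89 and 0.85.

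*Wt1* (ENSMUSG00000016458, chromosome 2, 105126529 to 105173616) encodes the Wilms tumour transcription factor, which marks mesothelium and visceral fat progenitors. It stood at 146 CPM in the mesothelial-marker cells and 27.0 CPM in the other barcodes of eWAT_SVF, a log2 ratio of 2.43 (95% interval 2.35 to 2.51). Its levels in eWAT_DFAT were 139 and 19.1 CPM (log2 ratio 2.87, 2.66 to 3.06). *Wt1* was thus also present outside the chosen cells, with a UMI in 44.4% of the other barcodes of eWAT_SVF against 88.3% of the chosen ones. Barcodes with 3 or more of 8 endothelial markers, a part of the other barcodes that should lack *Wt1*, gave 8.61% at a median of 16014 UMIs. With every barcode thinned to 5000 UMIs, none of which was shallower, the shares were 50.0%, 11.7% and 2.65% in the chosen, other and endothelial-marker barcodes.

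*Gpm6a* (ENSMUSG00000031517, chromosome 8, 54954843 to 55060871), a membrane glycoprotein gene, parted the groups further. Its levels were 287 and 0.764 CPM in eWAT_SVF, a log2 ratio of 8.55 (8.31 to 8.81), and 69.3 and 0.0543 CPM in eWAT_DFAT, a log2 ratio of 10.32 (9.38 to 11.42). A *Gpm6a* UMI was found in 89.5% of the mesothelial-marker cells of eWAT_SVF and 1.30% of the other barcodes. The share in eWAT_DFAT was 54.1% against 0.141%. Thinned, the shares of the chosen cells were 66.8% and 26.2%. Endothelial-marker barcodes of eWAT_SVF held 27.8 CPM, and they also held 24.7 CPM of the rule gene *Pkhd1l1*.

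*Bnc1* encodes basonuclin, a zinc finger protein of epithelia and mesothelium. It stood at 80.3 and 0.352 CPM in eWAT_SVF (log2 ratio 7.83) and at 45.6 and 0.120 CPM in eWAT_DFAT (log2 ratio 8.57). Free RNA held 6.76 CPM of *Bnc1* in eWAT_SVF and 1.35 CPM in eWAT_DFAT. *Cxadr*, a junction protein known as the coxsackievirus and adenovirus receptor, stood at 474 and 4.33 CPM (6.77) and at 222 and 2.67 CPM (6.38). The membrane mucin *Muc16*, whose product binds mesothelin, reached 38.9 CPM in the chosen cells of eWAT_SVF against 0.0542 CPM elsewhere. In eWAT_DFAT it reached 12.2 CPM, with 1 UMI in all other barcodes together.

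Some other mesothelial genes were not higher in both libraries. *Pdpn* (podoplanin), *Bcam* and *Tm4sf1* were within 2-fold in both libraries. *Calb2*, which encodes the pathology marker calretinin, had 0 UMIs in the mesothelial-marker cells of both libraries. *Prg4*, a lubricant of serous and joint surfaces, stood at 14.95 and 0.455 CPM in eWAT_SVF and had 0 UMIs in the 61 cells of eWAT_DFAT. *Efemp1*, an extracellular fibulin gene, was within 2-fold in eWAT_SVF at 126 and 94.9 CPM and was the gene counted as lower in eWAT_DFAT, at 13.5 and 55.0 CPM.

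**Figure D2:**
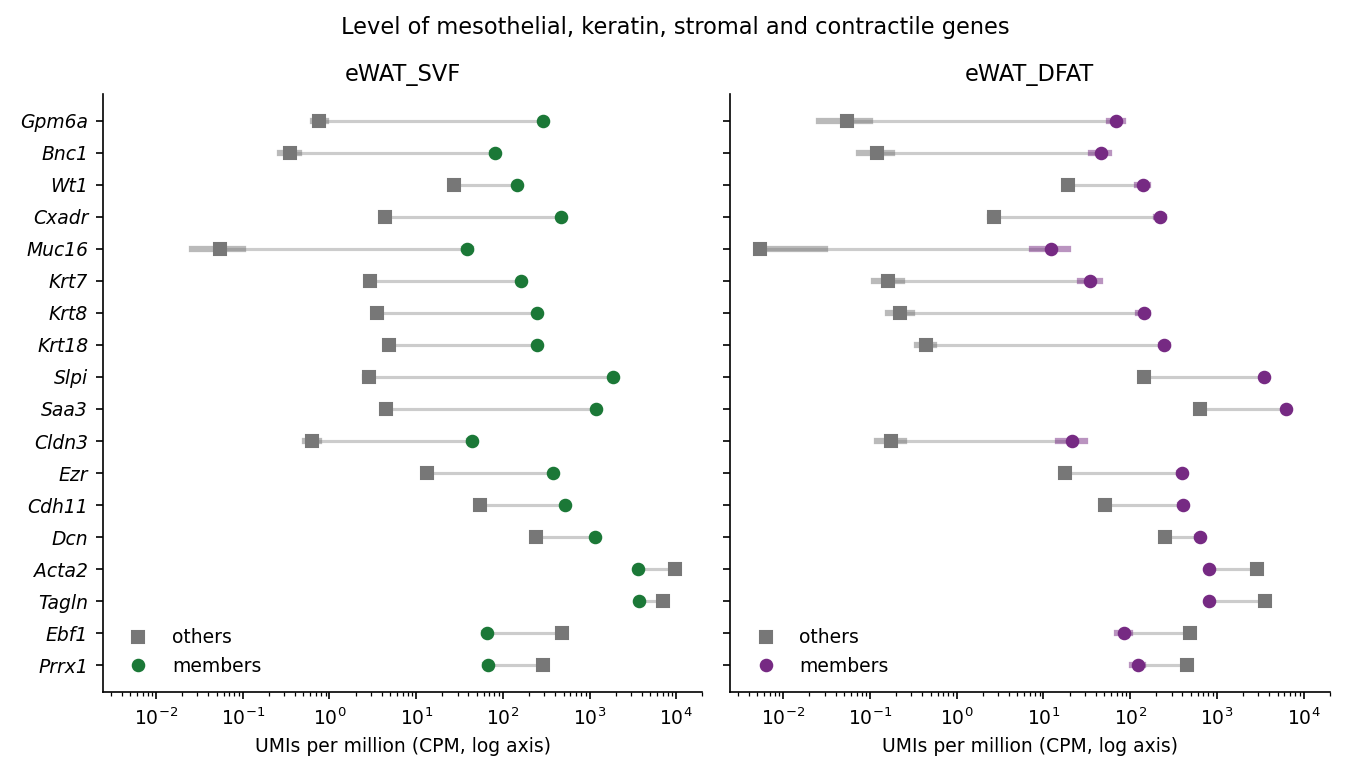
CPM (log axis) of 18 genes that the rule did not use (rows), in mesothelial-marker cells (circles, members) and the other barcodes (squares) of each eWAT library, with exact 95% Poisson bands where these were computed. *Gpm6a*, *Bnc1* and the keratins lie far apart, *Wt1* lies nearer (146 and 27.0 CPM in eWAT_SVF), and the order is turned for *Acta2*, *Tagln*, *Ebf1* and *Prrx1*.

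The clusters of each library, formed without the rule genes, put most of the chosen cells together. In eWAT_SVF 1 cluster of 486 barcodes held 469 of the 506 mesothelial-marker cells (92.7%), and 17 of its barcodes were not among them. Of these 17, 5 had a keratin sum of 2000 CPM or more and no UMI of *Upk3b*, *Wt1* or *Gpm6a*. In eWAT_DFAT 1 cluster of 79 barcodes held 60 of the 61, and 19 were not among them. The 37 chosen cells of eWAT_SVF that lay in other clusters had a median of 38453 UMIs, a median keratin sum of 0 CPM and a median contractile sum of 24641 CPM. The 469 had 546 CPM of keratins and 6565 CPM of contractile genes. *Gpm6a* stood at 20.7 CPM in the 37 and 320 CPM in the 469. The median score of a doublet search was 0.732 in the 37, 0.602 in the 469 and 0.683 in the other barcodes. Leaving out the barcodes with the highest scores, whatever their cluster, left 469 mesothelial-marker cells in eWAT_SVF and 55 in eWAT_DFAT. The equal number of 469 does not mean the same cells, since the removed cells were not compared with the 37.

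The 19 further barcodes of that eWAT_DFAT cluster fell short of the rule with few UMIs of *Upk3b* (7.09 CPM), yet they carried other mesothelial genes. *Upk1b* stood at 224 CPM and *Wt1* at 203 CPM in them, while *Gpm6a* stood at 14.2 CPM and *Bnc1* at 33.1 CPM. They held 12632 CPM of *Slpi*, 12951 CPM of *Saa3* and 2253 CPM of *Dcn*, with 75.6 CPM of *Krt8*. They were counted among the other barcodes throughout. Without them, a split made after their values had been seen, the level in the other barcodes of eWAT_DFAT was 0.049 CPM for *Krt8* in place of 0.223, 0.147 for *Krt18* in place of 0.440, 0.0436 for *Bnc1* in place of 0.120 and 0.0218 for *Gpm6a* in place of 0.0543. That of *Slpi* was 116 CPM in place of 145.

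Among measured genes, the keratin list had the largest median ratio of the gene lists compared, in both libraries. Of 5 keratin genes measured in eWAT_SVF, 4 were higher and 0 lower, with a median log2 ratio of 5.80. In eWAT_DFAT 3 of 4 were higher, with a median of 8.43. The list held 14 keratins, of which 8 in eWAT_SVF and 9 in eWAT_DFAT had 3 or fewer UMIs in the chosen cells. The keratins counted as higher reached the minimum of 5 CPM in the chosen cells alone. The counts and medians thus describe those genes and not the whole list. *Krt8* (ENSMUSG00000049382, chromosome 15, 101996698 to 102004482) and *Krt18* (ENSMUSG00000023043, chromosome 15, 102028180 to 102032027) encode the partner filaments of simple epithelia and lie beside each other. *Krt8* stood at 247 and 3.56 CPM in eWAT_SVF (log2 ratio 6.11, 5.99 to 6.24) and at 143 and 0.223 CPM in eWAT_DFAT (9.32, 8.84 to 9.84). *Krt18* stood at 244 and 4.91 CPM and at 248 and 0.440 CPM. *Krt7*, another keratin of simple epithelia, stood at 163 and 2.94 CPM and at 34.7 and 0.163 CPM. *Krt14*, a basal keratin, reached 40.4 CPM in the chosen cells of eWAT_SVF against 0.0487 CPM elsewhere, and had 4 UMIs in those of eWAT_DFAT. *Krt10* was within 2-fold in both.

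Counted per cell, 26 of the 506 mesothelial-marker cells of eWAT_SVF (5.14%) had no UMI of *Krt7*, *Krt8* or *Krt18*, against 5942 of 6239 other barcodes (95.2%). In eWAT_DFAT 13 of 61 (21.3%) had none, against 6343 of 6403 (99.1%). A *Krt8* UMI was seen in 81.4% of the chosen cells of eWAT_SVF and 2.65% of the endothelial-marker barcodes, or 54.3% and 0.662% after thinning. Free RNA, taken from droplets with 1 to 100 UMIs, held 22.5 CPM of *Krt8* in eWAT_SVF and 2.97 CPM in eWAT_DFAT.

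A handful of keratin-rich barcodes in eWAT_SVF had no UMI of several mesothelial genes. Among the other barcodes, 5 had a keratin sum of 2000 CPM or more and together held 73.6% of the group's keratin UMIs. They had no UMI of *Upk3b*, *Wt1* or *Gpm6a*, while 3 of them held 22 UMIs of the rule gene *Krt19*. As barcodes outside the rule they could hold at most 2 rule genes by choice. All 5 lay in the cluster that held most of the mesothelial-marker cells. They held 29 UMIs of *Cldn4*, 15 of *Epcam* and 8 of *Pax8*, which are genes of other epithelia. Without these 5 barcodes the level outside the chosen cells was 0.374 CPM for *Krt8*, 0.894 for *Krt18* and 1.74 for *Krt7*. These 5 were singled out after their values had been seen.

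The measured junction genes were mostly higher too. Of 13 junction and polarity genes measured in eWAT_SVF, 11 were higher and 0 lower, with a median log2 ratio of 3.02. In eWAT_DFAT 8 of 11 were higher, with a median of 3.32. The list held 35 genes, and many were near absent. In the chosen cells 15 of them had 3 or fewer UMIs in eWAT_SVF (8 had 0) and 21 in eWAT_DFAT (15 had 0). *Cldn3*, a tight junction claudin, stood at 44.2 and 0.628 CPM in eWAT_SVF and at 21.2 and 0.174 CPM in eWAT_DFAT. *Ezr*, which encodes ezrin, the link between microvilli and actin, stood at 377 and 13.2 CPM (log2 ratio 4.84) and at 395 and 17.7 CPM (4.49). *Tjp1*, the scaffold ZO-1, was near the limit at log2 ratios of 1.01 and 1.11, and under TMM scaling it was within 2-fold in both, at 0.75 and 0.93.

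Of the cadherins, *Cdh1* was near absent and 3 others were higher in both libraries. *Cdh1*, which encodes E-cadherin, had 1 UMI in the 506 chosen cells of eWAT_SVF and 0 in the 61 of eWAT_DFAT. *Epcam*, an adhesion gene of many epithelia, had 25 and 1. *Cdh3* (P-cadherin) stood at 86.7 and 10.7 CPM in eWAT_SVF and at 53.3 and 0.456 CPM in eWAT_DFAT. *Cdh2* (N-cadherin) stood at 165 and 39.7 CPM and at 492 and 120 CPM, log2 ratios of 2.06 and 2.03. *Cdh11*, a cadherin of mesenchymal cells, stood at 524 and 54.8 CPM (3.26) and at 411 and 51.8 CPM (2.99). *Vim*, which encodes vimentin, was within 2-fold at 1900 and 2523 CPM and at 1880 and 2218 CPM.

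Genes linked to mesenchymal transition were more often lower than higher. In eWAT_SVF 3 of 18 were higher and 8 lower (median log2 ratio -0.71), and in eWAT_DFAT 4 were higher and 7 lower (-0.72). *Prrx1*, a homeobox factor of stromal cells, stood at 66.5 and 288 CPM in eWAT_SVF and at 122 and 458 CPM in eWAT_DFAT. *Twist2* was lower in both libraries, while *Twist1* and *Zeb1* were within 2-fold. *Snai2* stood at 3.41 and 19.7 CPM in eWAT_SVF and at 1.93 (3 UMIs) and 25.2 CPM in eWAT_DFAT. *Cdh2*, *Cdh11* and *Tgfbi* were the higher genes of the list in both, and *Fn1* (fibronectin) in eWAT_DFAT, at 2276 and 898 CPM.

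Contractile genes were lower in the mesothelial-marker cells. In eWAT_SVF 11 of 15 measured genes were lower and 0 higher, with a median log2 ratio of -1.24, and in eWAT_DFAT 10 were lower and 1 higher, with a median of -1.83. *Acta2*, the smooth muscle actin gene, stood at 3617 and 9694 CPM in eWAT_SVF and at 809 and 2873 CPM in eWAT_DFAT. *Myh11*, the myosin heavy chain of smooth muscle, was lower in both, at 46.3 and 263 CPM and at 10.9 and 57.7 CPM. The exception was *Des* (desmin), which stood at 120 and 269 CPM in eWAT_SVF and at 116 and 45.1 CPM in eWAT_DFAT. The free RNA held 7901 and 2754 CPM of *Acta2*, so a part of the level in any barcode can come from it.

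The chosen cells were not uniform in this respect. The contractile sum was under 10000 CPM in 338 of 506 chosen cells of eWAT_SVF (66.8%) and 9.99% of the other barcodes. It was under that level in 55 of 61 (90.2%) and 39.0% in eWAT_DFAT. The median cell of eWAT_SVF had 825 CPM of *Acta2*, with quartiles at 229 and 2680, below the 3617 CPM of the summed UMIs.

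**Figure D3:**
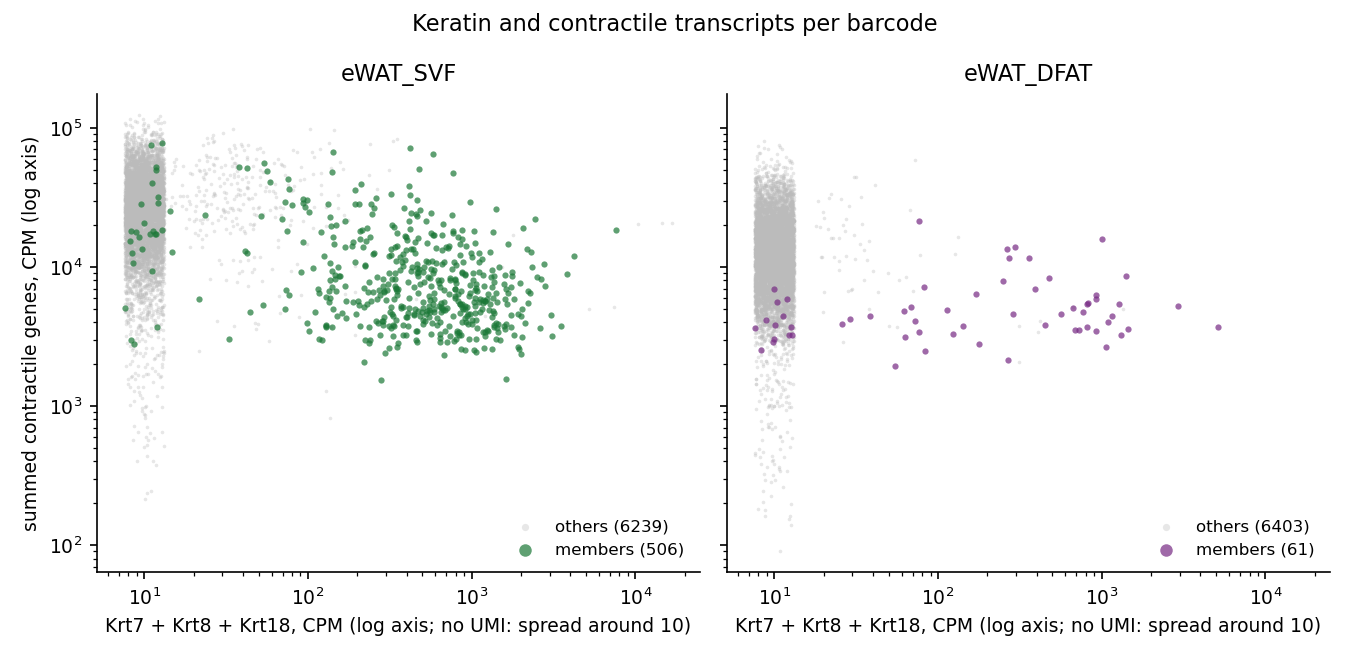
Each mesothelial-marker cell as a point, with its summed *Krt7*, *Krt8* and *Krt18* level (CPM, log axis, cells without a UMI spread around 10) against its summed contractile level (CPM, log axis), and the other barcodes in grey behind them. Most of the chosen cells lie at low contractile and high keratin levels, and 26 of 506 in eWAT_SVF and 13 of 61 in eWAT_DFAT lie in the column without a keratin UMI.

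Matrix and progenitor genes were mixed. Of 22 fibrillar and stromal matrix genes measured in eWAT_SVF, 4 were higher and 10 lower, and of 19 in eWAT_DFAT 1 was higher and 7 lower. The main fibrillar collagens *Col1a1*, *Col1a2* and *Col3a1* were within 2-fold in both libraries, with *Col3a1* at 1108 and 1132 CPM in eWAT_SVF. *Dcn*, the small proteoglycan decorin, was higher in both, at 1139 and 240 CPM and at 634 and 252 CPM. *Postn*, the matrix protein periostin, was lower in both, at 39.1 and 258 CPM and at 8.35 and 52.9 CPM. *Eln*, which encodes elastin, stood at 94.0 and 7.83 CPM in eWAT_SVF and had 3 UMIs in the chosen cells of eWAT_DFAT.

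Among stromal progenitor markers, 3 of 13 were higher and 5 lower in eWAT_SVF, and 5 of 12 were higher and 4 lower in eWAT_DFAT. *Pdgfra*, the receptor used to sort adipose progenitors, was within 2-fold at 125 and 79.5 CPM and at 156 and 94.7 CPM. *Pdgfrb* was lower in both, at 27.8 and 121 CPM and at 18.6 and 85.4 CPM. *Cd34* stood at 31.6 and 2.92 CPM and at 28.9 and 4.99 CPM, and *Dpp4*, a surface peptidase of early progenitors, at 82.0 and 3.93 CPM and at 19.9 and 2.87 CPM. *Pi16*, the other common early progenitor marker, had 8 and 0 UMIs in the chosen cells.

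Of the basement membrane genes, 5 of 22 were higher and 3 lower in eWAT_SVF, and 4 of 18 were higher and 2 lower in eWAT_DFAT, with medians of 0.03 and -0.08. *Col4a6*, a type IV collagen chain, was higher in both at 102 and 24.4 CPM and at 70.0 and 12.2 CPM. *Itga3*, a laminin-binding integrin, was higher in both at 46.3 and 7.03 CPM and at 14.1 and 1.48 CPM. *Lama2*, a laminin chain of muscle and stroma, was lower in both at 15.03 and 89.8 CPM and at 7.06 and 60.8 CPM. Of 11 glycocalyx and lubricant genes in eWAT_SVF 4 were higher and 4 lower, and of 10 in eWAT_DFAT 2 were higher and 1 lower. *Podxl*, a sialomucin of apical surfaces, was higher in both, at 7.28 and 0.390 CPM and at 19.9 and 0.772 CPM.

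Transcription factors were divided. Of 21 measured in eWAT_SVF, 8 were higher, 6 lower and 7 within 2-fold, and of 20 in eWAT_DFAT, 9 were higher, 5 lower and 6 within 2-fold. *Gata6*, a factor of the visceral mesoderm, stood at 265 and 35.8 CPM in eWAT_SVF (log2 ratio 2.89, 2.83 to 2.95) and at 303 and 35.4 CPM in eWAT_DFAT (3.10, 2.96 to 3.23). *Gata5* stood at 9.06 and 0.0325 CPM and at 26.3 and 0.0815 CPM, and *Hand2*, a factor of lateral mesoderm, at 37.3 and 1.64 CPM and at 68.0 and 0.451 CPM. *Sox6* was higher too, at log2 ratios of 6.16 and 5.45. *Ebf2*, a factor of adipose progenitors, was lower in both, at 7.28 and 51.4 CPM and at 3.85 and 73.0 CPM. Its relative *Ebf1* was lower too, at 65.0 and 480 CPM and at 84.7 and 490 CPM. *Meis2* was higher at log2 ratios of 1.07 and 1.04 and fell within 2-fold under TMM scaling, at 0.81 and 0.85.

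Retinoid genes were divided, and Wnt genes had more higher than lower members in both libraries. *Aldh1a2*, which makes retinoic acid in developing mesothelium, stood at 108 and 18.6 CPM in eWAT_SVF and at 57.8 and 12.8 CPM in eWAT_DFAT, while *Aldh1a3* was lower in both. In all 2 of 11 retinoid genes were higher and 3 lower in eWAT_SVF, with a median log2 ratio of -0.24, and 3 of 13 were higher and 5 lower in eWAT_DFAT, with a median of -0.36. Over all measured genes of eWAT_SVF and eWAT_DFAT 11.8% and 10.0% were higher, and 5.79% and 8.11% were lower. Of the Wnt genes 5 of 8 were higher and 2 lower in eWAT_SVF, and 5 of 10 were higher and 3 lower in eWAT_DFAT. *Rspo1*, an enhancer of Wnt signalling, stood at 102 and 20.3 CPM and at 10.3 and 1.70 CPM. *Wnt5a*, a ligand, was higher in both, at 57.2 and 16.6 CPM and at 87.3 and 15.1 CPM. *Sfrp1*, a secreted Wnt antagonist, was lower in both, at 73.9 and 395 CPM and at 1.28 (2 UMIs) and 24.9 CPM.

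Genes of surface defence were mostly higher in eWAT_SVF and divided in eWAT_DFAT. Of 15 complement, antimicrobial and acute phase genes measured in eWAT_SVF, 10 were higher and 2 lower, with a median log2 ratio of 2.13. In eWAT_DFAT 8 of 17 were higher and 6 lower, with a median of 0.92. *Slpi* (ENSMUSG00000017002, chromosome 2, 164354070 to 164389095) encodes a secreted inhibitor of leukocyte proteases. Its levels in eWAT_SVF were 1842 and 2.82 CPM (log2 ratio 9.35, 9.22 to 9.48). Its levels in eWAT_DFAT were 3454 and 145 CPM (log2 ratio 4.58, 4.54 to 4.62).

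*Saa3* (ENSMUSG00000040026, chromosome 7, 46711998 to 46715700) encodes an acute phase protein. It stood at 1174 and 4.52 CPM in eWAT_SVF and at 6297 and 636 CPM in eWAT_DFAT, log2 ratios of 8.02 and 3.31. Both genes were uneven among the chosen cells of eWAT_SVF, where the median cell had 559 CPM of *Slpi* with quartiles at 61.4 and 3316, and 195 CPM of *Saa3* with a lower quartile of 0. Free RNA held 154 and 211 CPM of *Slpi* and 117 and 1019 CPM of *Saa3*. A *Saa3* UMI was found in 31.4% of the endothelial-marker barcodes of eWAT_DFAT, at a median of 12115 UMIs, against 91.8% of the chosen cells and 48.2% of the other barcodes. After thinning these shares were 14.1%, 85.2% and 24.8%.

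The complement genes *C2*, *C1ra* and *C1s1* were higher in both libraries, but *C1ra* was within 2-fold in eWAT_DFAT under TMM scaling (log2 ratio 0.97) and with at least 4 rule genes (0.92). *C3*, the central complement protein, stood at 319 and 76.1 CPM in eWAT_SVF and was within 2-fold in eWAT_DFAT at 144 and 86.6 CPM. *Cd55*, which guards cells against complement, stood at 34.8 and 7.94 CPM and at 80.9 and 7.56 CPM. *Il18*, an epithelial cytokine gene, stood at 71.3 and 2.24 CPM and at 20.5 and 3.15 CPM. *Hp* (haptoglobin) was lower in both, at 28.8 and 126 CPM and at 61.6 and 359 CPM.

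Chemokines had more higher genes in eWAT_SVF and more lower ones in eWAT_DFAT. Of the chemokines and cytokines 7 of 14 were higher and 4 lower in eWAT_SVF, and 3 of 16 were higher and 11 lower in eWAT_DFAT. *Cxcl5*, a neutrophil chemokine, stood at 40.0 and 1.72 CPM in eWAT_SVF but at 745 and 1576 CPM in eWAT_DFAT. *Cxcl1* stood at 42.8 and 20.03 CPM and at 257 and 1065 CPM. *Ccl2*, a monocyte chemokine, stood at 297 and 107 CPM and was within 2-fold in eWAT_DFAT at 1565 and 3044 CPM. For each of them the level in the chosen cells was higher in eWAT_DFAT than in eWAT_SVF, and the level in the other barcodes was higher by more. *Cxcl1* came within 2-fold in eWAT_SVF under TMM scaling, at a log2 ratio of 0.84. *Cxcl5* came within 2-fold in eWAT_DFAT at -0.88 among cells with at least 4 rule genes and at -0.83 when per-cell CPM were averaged. *Ccl2* passed 2-fold lower in eWAT_DFAT under TMM scaling, at -1.14, and at -1.05 without likely doublets and with free RNA subtracted. *Cxcl16*, which has a membrane-bound form, was higher in the chosen cells of both, at 115 and 17.5 CPM and at 171 and 74.9 CPM.

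Of the growth factors 5 of 23 were higher and 6 lower in eWAT_SVF, and 2 of 24 were higher and 13 lower in eWAT_DFAT. *Bmp4* was higher in both, at 126 and 48.8 CPM and at 16.7 and 0.935 CPM, and so was *Fgf1*, at 29.7 and 1.09 CPM and at 22.5 and 4.43 CPM. *Inhba*, an activin subunit, was lower in both, at 62.2 and 252 CPM and at 83.5 and 468 CPM. *Fgf7*, a stromal ligand for epithelia, was lower in both, at 13.9 and 92.6 CPM and at 81.5 and 361 CPM. Of 8 genes of insulin-like growth factor binding proteins and their partners 1 was higher and 1 lower in eWAT_SVF, and 4 were higher and 2 lower in eWAT_DFAT. *Igfbp4* stood at 616 and 313 CPM, within 2-fold, and at 302 and 29.3 CPM.

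**Figure D4:**
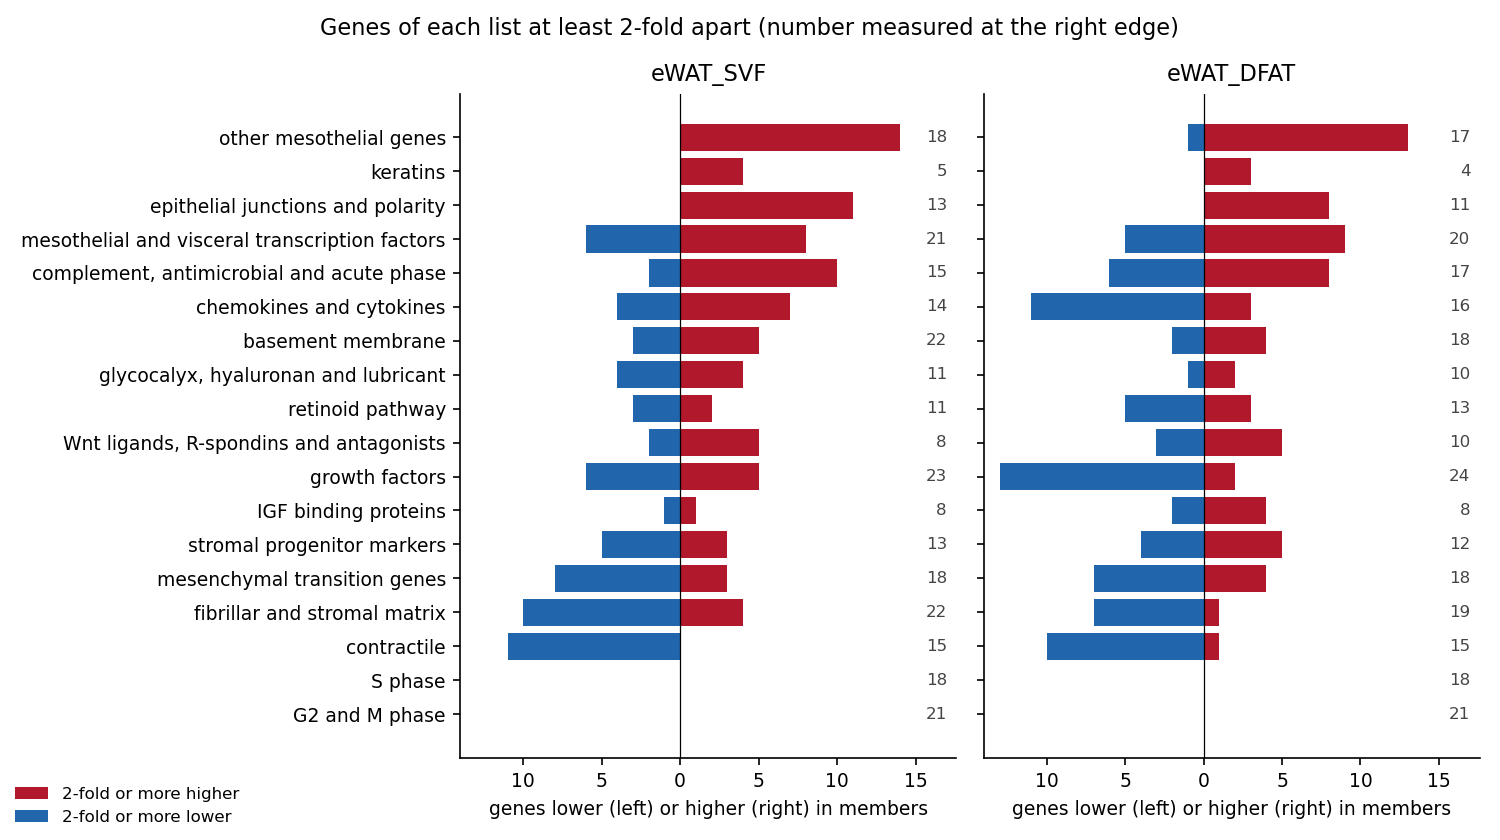
Number of genes per gene list (rows) that were 2-fold or more higher (right) or lower (left) in mesothelial-marker cells than in the other barcodes. Each eWAT library has its own panel, with the number of genes measured at the right edge. Measured genes of junctions, keratins and other mesothelial genes are mostly higher (11 of 13, 4 of 5 and 14 of 18 in eWAT_SVF). Those lists hold 35, 14 and 20 genes. Contractile genes are mostly lower, and the cell cycle lists lie within 2-fold.

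Cell cycle genes were within 2-fold. All 18 S phase genes and all 21 genes of G2 and M phase were within 2-fold in both libraries, with medians between 0.00 and 0.35. *Mki67*, a marker of dividing cells, stood at 77.9 and 72.1 CPM in eWAT_SVF and at 120 and 101 CPM in eWAT_DFAT. With every barcode thinned to 5000 UMIs, 29.2% (25.3% to 33.4%) of the chosen cells of eWAT_SVF and 36.2% (34.97% to 37.4%) of the others held 3 or more UMIs of the G2 and M phase genes. The first share was lower beyond counting error. In eWAT_DFAT the shares with 3 or more UMIs of the G2 and M phase genes were 42.6% (30.04% to 55.9%) and 52.4% (51.2% to 53.7%). Their intervals overlap. No barcode fell short of 5000 UMIs. Free RNA held 974 CPM of the G2 and M phase genes in eWAT_SVF and 1293 CPM in eWAT_DFAT. Its part in the shares was not tested, so they are not read as shares of cycling cells.

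Most markers of other cell types were at low levels in the chosen cells. The 8 endothelial markers summed to 49.2 CPM against 68.8 CPM in the other barcodes of eWAT_SVF and to 54.6 against 50.3 CPM in eWAT_DFAT. The median cell held 28.3 CPM of them among the chosen cells of eWAT_SVF and 32.5 CPM among those of eWAT_DFAT, against 0 among the others of both. *Kdr* and *Esam*, the receptor for VEGF and a junction protein, were higher in the chosen cells of both libraries (*Kdr* at 11.2 and 1.81 CPM and at 23.1 and 3.12 CPM). Every other measured endothelial marker was lower, in a comparison group that includes the endothelial-marker barcodes. These held 1093 of the 1144 *Pecam1* UMIs of the other barcodes in eWAT_SVF and 1119 of 1264 in eWAT_DFAT. *Cdh5*, *Emcn* and *Cldn5* had 0 UMIs in the chosen cells of eWAT_DFAT. The 10 immune markers summed to 17.8 against 69.6 CPM and to 12.8 against 19.0 CPM, and *Ptprc* and *Tyrobp* had 0 UMIs in the chosen cells of both libraries. Of 3 immune markers measured in eWAT_SVF, 1 was higher, 1 lower and 1 within 2-fold, and the 1 measured in eWAT_DFAT was within 2-fold.

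Pericyte markers were lower for 4 of 4 measured genes in eWAT_SVF and for 3 of 4 in eWAT_DFAT, where *Kcnj8* was higher with 9 UMIs. The adipocyte markers summed to 9.45 against 3.26 CPM in eWAT_SVF, where the lipase gene *Lipe* was the measured one and was higher. In eWAT_DFAT they summed to 8.35 CPM in the chosen cells and 106 CPM in the others, and *Adipoq*, *Cidec*, *Cfd*, *Lep* and *Pck1* had 0 UMIs in the chosen cells. No glial or epididymal epithelium marker was measured, with sums between 0.989 and 2.87 CPM in all groups. *Pax8* is 1 of the 10 epididymal epithelium markers, and 4 of the 5 keratin-rich barcodes of eWAT_SVF described above held 8 UMIs of it. A minimum on summed UMIs cannot show so few barcodes. Of the urothelial markers *Ppl*, a cell envelope protein gene, was measured and higher in both, and *Upk2* had 0 UMIs. Of the gonadal markers *Star*, a sterol carrier gene, was higher in eWAT_SVF at 9.06 and 3.98 CPM and within 2-fold in eWAT_DFAT. Its log2 ratio in eWAT_SVF was 0.93 under TMM scaling and 0.98 with at least 4 rule genes, and in eWAT_DFAT it was 1.12 with at least 4 rule genes.

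Of the 10052 genes measured in both libraries, 640 were higher in the chosen cells of each. These are 61.0% of the 1050 higher in eWAT_SVF and 71.3% of the 897 higher in eWAT_DFAT. A further 388 were lower in each, 73.9% of 525 and 55.8% of 695. Among all genes measured in each library, 11.8% were higher and 5.79% lower in eWAT_SVF, and 10.0% and 8.11% in eWAT_DFAT. Opposite calls were rare, with 21 genes higher in eWAT_SVF and lower in eWAT_DFAT and 6 the other way. The comparisons share no control barcodes, since each used the other barcodes of its own library. The libraries may still share animals, since the paper describes preparing both fractions of a depot side by side.

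The 15 genes with the largest ratio in the library where it was smaller were *Gpm6a*, *Calca*, *Bnc1*, *Wdr17*, *Pcnx2*, *Pnoc*, *Sez6l*, *Tmem108*, *Angptl7*, *Cldn10*, *Cxadr*, *Cldn3*, *Krt8*, *Stk26* and *Krt7*. *Calca*, which encodes calcitonin and the neuropeptide CGRP, stood at 132 and 0.217 CPM in eWAT_SVF and at 32.7 and 0.109 CPM in eWAT_DFAT. It was seen in 30.6% of the chosen cells of eWAT_SVF and 18.0% of those of eWAT_DFAT, or 21.7% and 6.56% after thinning. *Pnoc*, the precursor of the neuropeptide nociceptin, stood at 30.6 and 0.168 CPM and at 104 and 0.614 CPM. A *Pnoc* UMI was seen in 10.3% of the chosen cells of eWAT_SVF and 29.5% of those of eWAT_DFAT, or 6.72% and 19.7% after thinning. *Tmem108*, a membrane protein gene, stood at 401 and 0.791 CPM and at 249 and 1.86 CPM.

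The 15 genes lowest by the same rule were *Ebf2*, *Pi15*, *Postn*, *Galnt17*, *Frmd4a*, *Lama2*, *Srpx2*, *Ebf1*, *Col12a1*, *Pla1a*, *Aoc3*, *Sfrp1*, *S1pr3*, *Thbs2* and *Myh11*. *Aoc3*, an amine oxidase of adipocytes and smooth muscle, stood at 7.44 and 40.3 CPM in eWAT_SVF and at 3.85 and 27.6 CPM in eWAT_DFAT. *Col12a1*, a collagen that binds to fibrils, stood at 52.1 and 284 CPM and at 27.0 and 202 CPM. *S1pr3*, a sphingolipid receptor, stood at 10.2 and 58.3 CPM and at 15.4 and 82.2 CPM. The smallest difference among the 15 was a log2 ratio of -2.40, for *Thbs2* in eWAT_SVF and *Myh11* in eWAT_DFAT.

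**Figure D5:**
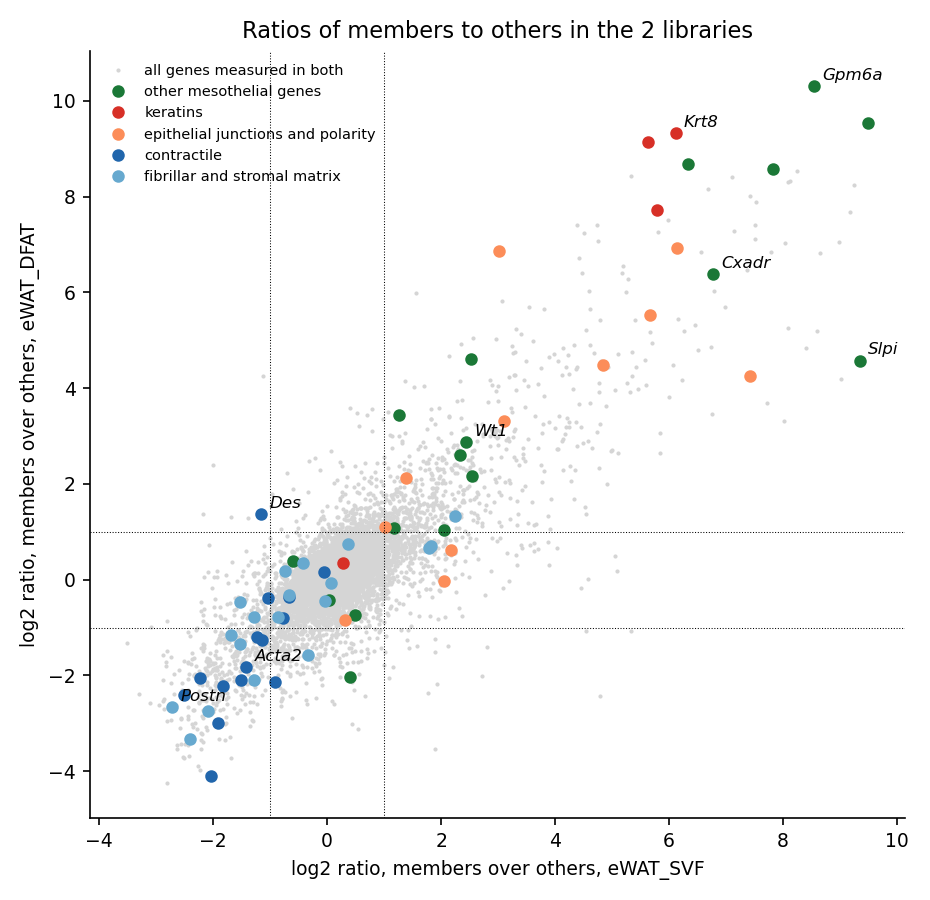
Log2 ratio of CPM between mesothelial-marker cells and the other barcodes in eWAT_SVF (x axis) against eWAT_DFAT (y axis) for genes measured in both, with 5 gene lists coloured, dotted lines at 2-fold, members meaning mesothelial-marker cells and groups under 3 UMIs set to that floor. Most genes far from 0 lie in the upper right or lower left, and *Des* is the coloured gene of the upper left (-1.17 and 1.36).

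Between the mesothelial-marker cells of the 2 libraries, 639 of 10807 measured genes (5.91%) were higher in eWAT_DFAT and 991 (9.17%) lower. Of the 639 genes 306 (47.9%) were also higher in the other barcodes of eWAT_DFAT than in those of eWAT_SVF, and 13 were lower there. Of the 991 genes 395 (39.9%) were also lower there and 44 higher. Among all 10807 genes 6.44% were higher and 6.26% lower in the other barcodes of eWAT_DFAT. The cell number differs 506 to 61, each side is 1 library, and culture method, library and composition cannot be told apart.

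The summed levels of *Wt1* and *Krt18* did not differ beyond counting error between the chosen cells of the libraries. Their log2 ratios of eWAT_DFAT to eWAT_SVF were -0.07 (-0.28 to 0.14) and 0.02 (-0.14 to 0.17), and *Ezr* gave 0.07 (-0.06 to 0.19). Per cell *Krt18* was less alike. The median cell held 143 CPM in eWAT_SVF and 72.0 CPM in eWAT_DFAT, and 81.0% and 70.5% of the cells had a UMI. In eWAT_DFAT 2 of the 61 cells, those with a keratin sum of 2000 CPM or more, held 100 of the 386 *Krt18* UMIs. The partner keratin *Krt8* was lower in eWAT_DFAT at -0.79 (-0.99 to -0.59), *Krt7* at -2.24 (-2.65 to -1.85) and *Bnc1* at -0.82 (-1.18 to -0.47). *Msln* was lower in eWAT_DFAT by a log2 ratio of -3.07 (-3.64 to -2.55) and *Gpm6a* by -2.05 (-2.34 to -1.77). *Msln* was a gene of the rule, so its value is a description. *Cdh2* was higher at 1.57 (1.45 to 1.69), and the other barcodes gave 1.60. *Saa3* was higher at 2.42 in the chosen cells and at 7.14 in the others. *Slpi* was higher in the others by 5.68 and within 2-fold in the chosen cells at 0.91.

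*Wnt4*, a ligand of gonad and kidney development, differed between the libraries in opposite directions in the chosen and the other barcodes. It stood at 25.9 CPM in those of eWAT_SVF and 230 CPM in those of eWAT_DFAT, a log2 ratio of 3.15 (2.93 to 3.37). The other barcodes held 8.83 and 3.619 CPM (log2 ratio -1.29). A *Wnt4* UMI was seen in 29.8% of the chosen cells of eWAT_SVF and 73.8% of those of eWAT_DFAT, against 9.27% and 1.28% of the endothelial-marker barcodes. With every barcode thinned to 5000 UMIs the shares of the chosen cells were 9.88% and 54.1%.

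*Pappa* encodes a protease that frees insulin-like growth factors from their binding proteins. Its levels in the chosen and the other barcodes were 38.0 and 83.5 CPM in eWAT_SVF and 117 and 6.16 CPM in eWAT_DFAT. With per-cell CPM averaged, the log2 ratio in eWAT_SVF moved from -1.13 to -0.76. *Igfbp5*, which encodes such a binding protein, stood at 35.1 and 1.27 CPM in eWAT_SVF and had 0 UMIs in the chosen cells of eWAT_DFAT against 10.4 CPM in the others, which is at least 5.41-fold lower at a floor of 3 UMIs per group. *Sfrp2*, a secreted Wnt modulator, stood at 249 and 7.46 CPM in eWAT_SVF and was within 2-fold in eWAT_DFAT at 10.3 and 7.25 CPM. *Gabrg3*, a GABA receptor subunit, stood at 0.310 and 0.363 CPM in eWAT_SVF and at 117 and 9.67 CPM in eWAT_DFAT. *Tnip3*, an inhibitor of NF-κB signalling, stood at 0.465 and 0.406 CPM and at 25.7 and 0.788 CPM.

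*Fmo2*, a flavin-containing monooxygenase, stood at 112 and 0.531 CPM in eWAT_SVF and at 0.642 (1 UMI) and 2.26 CPM in eWAT_DFAT. *Nrg1*, an EGF-family ligand, stood at 110 and 4.98 CPM in eWAT_SVF and at 19.3 and 21.7 CPM in eWAT_DFAT. *Lratd1* was higher in both, at 33.7 and 0.0650 CPM and at 9.63 and 0.527 CPM. *Cited4*, a transcriptional co-activator gene, stood at 2.56 and 0.666 CPM in eWAT_SVF, under the minimum, and at 21.2 and 0.467 CPM in eWAT_DFAT. *Piezo2*, a mechanically gated channel, stood at 14.4 and 65.3 CPM and at 38.5 and 14.96 CPM, where cells with at least 4 rule genes gave a log2 ratio of 0.43 in place of 1.36. *Fndc1*, a fibronectin-domain protein gene, stood at 7.67 and 30.9 CPM and at 23.1 and 4.37 CPM. The 61 cells of eWAT_DFAT summed to 1557767 UMIs against 12908198 in eWAT_SVF, so low genes rest on few UMIs there.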

How the data were processed

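Cells were cultured from mouse fat, sorted and sequenced as 4 droplet libraries, 1 per condition. The authors aligned the reads to mm10 and deposited raw UMI counts per gene and barcode. The submitters' processing notes name Cell Ranger 7.0.0, while the file headers give 7.1.0 for 3 libraries and 4 for iWAT_SVF. Per the methods, reads in introns were counted (whether this holds for iWAT_SVF, given its header, was not tested), and free RNA, doublets and batches were handled by later steps that were not run here. Deposited counts were used as they stood. The study filtered at a lower UMI limit, and the limit of 5000 UMIs is the rule's own.

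Barcodes were chosen by the rule above, and the members and all gene lists were chosen with earlier results of these data known. Counts were summed over the chosen and the other barcodes of a library and divided by their total. Ratios have exact conditional binomial intervals, CPM exact Poisson intervals and shares exact (Clopper-Pearson) intervals, all at 95%. Where a fold or a rank needed it, a group under 3 UMIs was set to a floor of 3 counts. The floor was 0.232 and 1.93 CPM in the chosen cells of eWAT_SVF and eWAT_DFAT. With 1 library per condition no p-value was computed, and a call is a ratio of 2-fold at 5 CPM or more in the higher group.

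Clusters were formed per library from 2000 variable genes without the rule genes, with 30 principal components, 20 neighbours and Leiden resolution 0.5 (seed 1). They serve to describe where the chosen cells lie and carry no cell type name. Doublets were kept. As an alternative they were removed at 0.8% per 1000 barcodes by the score of each barcode among simulated doublets, an implementation made for this work after the Scrublet method, which marked 364 barcodes in eWAT_SVF and 334 in eWAT_DFAT. Free RNA was the profile of droplets with 1 to 100 UMIs. The other alternatives were other rule limits, comparison barcodes, weighting, subtraction of free RNA at 5%, TMM factors, a filter of 1 CPM, a smaller fold and the main cluster alone. For the comparison between libraries, the limit of 4 rule genes and the main cluster alone were added after seeing the data, as were keratin levels without the keratin-rich barcodes.

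Named genes were the rule genes, list genes, 15 per direction ranked by their ratio in the library where it was smaller (20 CPM or more in the higher group of both, 6098 genes), and 8 per direction whose ratio differed most between libraries (6880 genes). Gene positions are those of the GENCODE annotation on GRCm38. The steps were tested on simulated data. Python 3.11.15, numpy 2.4.6, pandas 2.3.3, scipy 1.17.1, scikit-learn 1.9.0, python-igraph 0.11.9, leidenalg 0.10.2 and matplotlib 3.10.9 were used, and edgeR 4.0.16 in R 4.3.3 gave the TMM factors. Some genes of the lists are not reported here by name.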

Additional observations from a re-analysis of the deposited data

Results flagged for a closer look

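Of all measured genes, 21 were 2-fold or more higher in the mesothelial-marker cells of eWAT_SVF and lower in those of eWAT_DFAT, and 6 the other way. Among the genes named by rule or list, 7 passed 2-fold in such opposite directions. With 1 library each, these differences between libraries were not tested. *Cxcl1* was higher in the chosen cells of eWAT_SVF and lower in those of eWAT_DFAT, a difference of 3.15 on the log2 scale (eWAT_SVF minus eWAT_DFAT). For *Cxcl5* the difference was 5.62, and for *Igfbp5* it was 7.22, with the chosen cells of eWAT_DFAT set at the floor of 3 UMIs. The other 4 genes were lower in the chosen cells of eWAT_SVF and higher in those of eWAT_DFAT. Their differences were -5.39 for *Pappa*, -4.41 for *Fndc1*, -3.54 for *Piezo2* and -2.53 for *Des*. For 4 of the 7 genes 1 side came within 2-fold under another setting. *Cxcl1* did in eWAT_SVF under TMM scaling (0.84), *Pappa* in eWAT_SVF with per-cell CPM averaged (-0.76), and *Piezo2* in eWAT_DFAT among cells with at least 4 rule genes (0.43). *Cxcl5* did in eWAT_DFAT among those cells (-0.88) and with per-cell CPM averaged (-0.83). The level in the other barcodes differed between the libraries too, and the part of each side was not tested.

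In the iWAT_SVF library, which the comparisons do not use, the rule gene *Krt19* was detected widely. A *Krt19* UMI was seen in 58.4% of the iWAT_SVF barcodes (95% interval 57.3% to 59.5%), at 70.7 CPM, and in 9.16% of the iWAT_DFAT barcodes, at 5.78 CPM. The free RNA of iWAT_SVF held 86.8 CPM of it. The header of that library names another Cell Ranger version, and whether introns were counted alike in both was not tested. The other rule genes were at 0.532 CPM or less there.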

How the results depend on the processing

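No paired analysis was possible because each condition is 1 library and no test was made. No log2 ratio of a named gene changed sign with a call under any alternative run. Of the log2 ratios of named genes, 3712 stayed within their counting interval and 1200 moved beyond it. In eWAT_SVF 446 cells had at least 4 rule genes and 350 passed after thinning to 5000 UMIs. In eWAT_DFAT the number of mesothelial-marker cells was 33 with at least 4 rule genes and 25 after thinning. With a filter of 1 CPM, 2070 genes were higher and 1012 lower in eWAT_SVF, and 2200 were higher in eWAT_DFAT, where 5 keratins were then higher. With a log2 limit of 0.58, 2419 were higher and 1091 lower in eWAT_SVF, and 2099 and 1450 in eWAT_DFAT. The other 29 counts of genes apart were within 1.5 times the value reported, as were 63 counts for the main lists. Of the counts for the other lists, 722 were within 1.5 times and 46 were not. Low genes in eWAT_DFAT are limited by 1557767 UMIs over 61 cells. Culture method and library cannot be told apart.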
